A study of Mus musculus with 8 samples.

Results

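The NF-κB subunits and feedback regulators described here are 10 genes: *Nfkbia*, *Nfkbiz*, *Nfkbie*, *Tnfaip2*, *Tnfaip3*, *Nfkb1*, *Nfkb2*, *Relb*, *Bcl3* and *Ikbkg*. A gene entered through every probe set that the array annotation gave to its symbol alone, and its brightest probe set over the 8 arrays gave its main value. In this way 9 of the 10 genes were measured by 25 of the 45037 probe sets tested, out of 18193 genes with such a probe set. *Nfkb1* was not analysed here. Signals were taken from immature bone marrow-derived dendritic cells (BMDCs) of female BALB/c mice, grown with the cytokine GM-CSF and collected as the non-adherent cells of the culture. The cells received 75 µg/mL of [BF/S+L/Ep], the butanol fraction of an *Echinacea purpurea* stem and leaf extract, or the vehicle alone. Both groups contained 0.1% DMSO. RNA was taken after 12 h or 4 h and hybridized to Affymetrix mouse arrays, giving [BF/S+L/Ep] 12 h, DMSO 12 h, [BF/S+L/Ep] 4 h and DMSO 4 h with 2 arrays each.

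NF-κB is a family of dimeric transcription factors that drives much of the inflammatory gene program of myeloid cells. In resting cells the dimers are held by inhibitors of the IκB family, and the IκB kinase complex, of which *Ikbkg* encodes the regulatory subunit NEMO, marks these inhibitors for destruction when a receptor is triggered. The released dimers switch on a set of genes that includes their own inhibitors and several of their own subunits, so that transcripts of the feedback genes are widely used as a readout of the pathway in dendritic cells and macrophages.

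Across the arrays the median signal lay between 86.4 and 103.7. As a background reference, the 95th percentile was taken over 86 taste, vomeronasal and olfactory receptor probe sets of each array, and it lay between 66.5 and 106.5, and the brightest probe set of all 9 members was above it on all 8 arrays. Of the conventional dendritic cell markers, 7 of 8 were above the reference on every array, with *Flt3* the exception. None of 4 B cell, 5 T and NK cell and 6 mast cell and basophil markers was above it on at least 4 arrays. All 5 measured macrophage markers were above it on every array, as were 3 of 7 neutrophil and 3 of 4 plasmacytoid dendritic cell markers, and 3 of 4 stromal markers were above it on at least 4 arrays and none on all 8. The study calls both arrays of a group biological replicates of its cell cultures and does not say whether their cells came from separate animals, so the p-values measure the spread between these arrays.

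Promoter sequence was available for 7 of the 9 measured genes, and these stretches are shown because NF-κB dimers recognise κB sites and the members include textbook NF-κB targets. The κB consensus, 10 bases long, was searched on both strands in the 250 bases before each start annotated by RefSeq (GRCm38.p6). It was found for 5 of 7 member genes (71.4%), in 7 of their 13 windows (53.8%), against 8.24% of 27018 genes and 7.25% of 32841 windows in the whole table. *Bcl3* and *Ikbkg* had no match in these windows. *Nfkbiz*, *Relb* and *Nfkb1* had no entry. Below, capitals mark the bases covered by a match, and the sequence runs 5′ to 3′ on the strand of the gene. The first 3 stretches end at the base before the outermost annotated start: *Nfkbia* at chr12:55492648-55492777 (minus strand), *Nfkbie* at chr17:45555570-45555699 (plus strand) and *Tnfaip3* at chr10:19015411-19015540 (minus strand).
Nfkbia: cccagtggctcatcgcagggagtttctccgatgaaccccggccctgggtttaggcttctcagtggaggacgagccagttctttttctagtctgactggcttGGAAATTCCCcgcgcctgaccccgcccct
Nfkbie: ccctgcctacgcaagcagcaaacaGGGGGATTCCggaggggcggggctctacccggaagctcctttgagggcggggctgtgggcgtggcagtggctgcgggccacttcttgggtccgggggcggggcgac
Tnfaip3: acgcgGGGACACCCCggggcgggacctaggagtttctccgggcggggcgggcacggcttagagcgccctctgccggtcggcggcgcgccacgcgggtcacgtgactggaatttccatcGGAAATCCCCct

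The *Nfkbia* match lay 29 to 20 bases before the start and the *Nfkbie* match 106 to 97 bases before it. *Tnfaip3* held a match at 125 to 116 bases and another at 12 to 3 bases before its outermost start. Of the remaining genes, *Nfkb2* had matches in 3 windows, here shown with up to 8 bases on each side, and *Tnfaip2* had 1 match 24 to 15 bases before a start. The *Nfkb2* pieces are at chr19:46304690-46304716, chr19:46304718-46304736, chr19:46305451-46305476 and chr19:46305697-46305722, and the *Tnfaip2* piece at chr12:111442629-111442654, all on the plus strand.
Nfkb2, piece a: atcgtcacGGGAATTCCCCccctcggg
Nfkb2, piece b: ggccgaaaGGGGCTTTCCc
Nfkb2, piece c: cgacggcaGGAATGTCCCcacaaaag
Nfkb2, piece d: gtattttcGGGACTTTCCtaagcagc
Tnfaip2: ctattttaGGAGGGCCCCtccagggt

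In piece a of *Nfkb2* 2 matches overlap by 9 bases. A match is a description of these letters, and binding was not measured.

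Treatment with [BF/S+L/Ep] went with small upward differences in most of the members and with a called change in *Tnfaip2* alone. Averaged over both times, 8 of 9 members lay above 0 on the log2 scale, with a median of 0.21 and a range from -0.07 for *Nfkbia* to 0.49 for *Nfkbiz*, against a median of -0.03 over all 18193 genes. With adjusted p under 0.05 as the call, in limma with Benjamini-Hochberg adjustment over 45037 probe sets, 1 of 9 was higher and 0 were lower. Of all 18193 genes, 0.159 percent were called higher and 5 genes lower. At an unadjusted p under 0.05, 6 of 9 were higher over both times (*Nfkb2*, *Nfkbie*, *Nfkbiz*, *Relb*, *Tnfaip2* and *Tnfaip3*), against 3.28 percent of all genes, and 5 of these 6 did not pass the adjustment. The members and lists were chosen with earlier results of these data known. Their signal counts set beside all genes, here and below, are therefore a description and no independent evidence. At 12 h 0 of 9 members were called, with 0.0330 percent of all genes called higher, and 2 of 9 were higher at an unadjusted p under 0.05, against 2.65 percent of all genes. At 4 h 0 of 9 were called, with 0.0110 percent of all genes called higher, and 2 of 9 were higher at an unadjusted p under 0.05, against 2.41 percent of all genes.

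**Figure D1:**
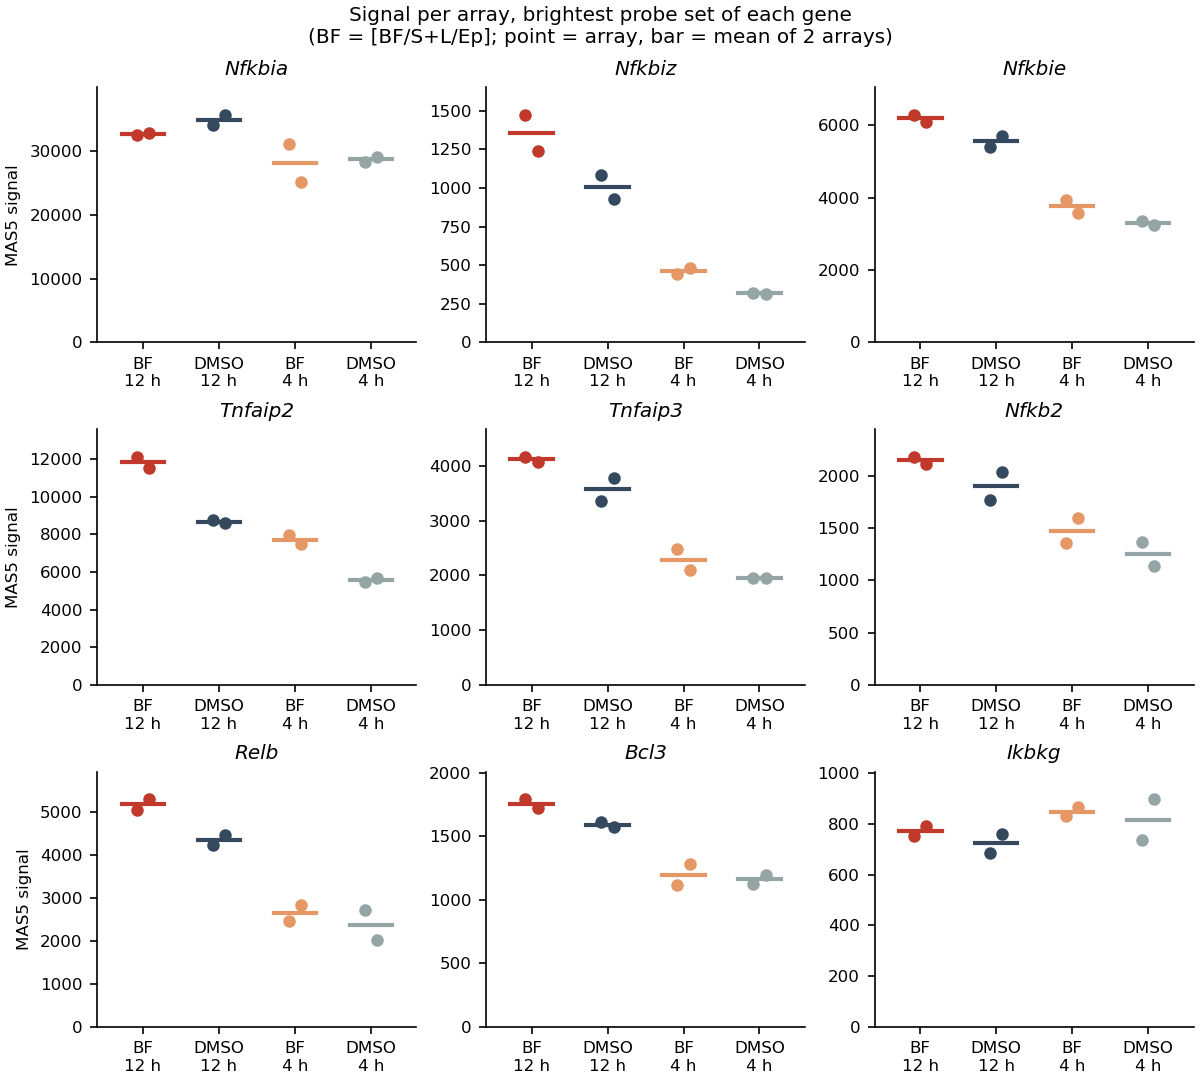
MAS5 signal (linear scale, vertical axis from 0) of the brightest probe set of each of the 9 measured genes on all 8 arrays, where a point is an array and a bar the group mean. In *Tnfaip2* and *Nfkbiz* both [BF/S+L/Ep] points stand above both DMSO points at 12 h and at 4 h, and in all genes but *Ikbkg* both 12 h points stand above both 4 h points of the same treatment.

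Counting arrays and not p-values, both [BF/S+L/Ep] arrays stood above both DMSO arrays for 7 of 9 members at 12 h, the exceptions being *Nfkbia* and *Ikbkg*. This held for 14.7 percent of all genes. At 4 h it held for 4 of 9 members, *Nfkbie*, *Nfkbiz*, *Tnfaip2* and *Tnfaip3*, and for 14.7 percent of all genes. The same 4 were above without overlap at both times, as were 3.51 percent of all genes. At its brightest probe set no member reached a 2-fold difference in the group means and in both ratios of same-numbered arrays. This was 0 of 9 at 12 h, where 0.132 percent of all genes were 2-fold higher, and 0 of 9 at 4 h, where 0.148 percent were. A dimmer *Ikbkg* probe set that reached it at 4 h is described below.

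Most of the members were higher at 12 h than at 4 h, with either treatment. Of the 9, 7 were called higher in [BF/S+L/Ep] (*Bcl3*, *Nfkb2*, *Nfkbie*, *Nfkbiz*, *Relb*, *Tnfaip2* and *Tnfaip3*), with 2.15 percent of all genes called higher and a member median of 0.62 on the log2 scale. In DMSO 6 of 9 were called higher, all of these but *Bcl3*, with 1.79 percent of all genes called higher and a member median of 0.64. No brightest probe set of a member was called lower in either treatment. Of all 18193 genes, 384 were called lower in [BF/S+L/Ep] and 282 in DMSO. Both 12 h arrays stood above both 4 h arrays for 8 of 9 members in [BF/S+L/Ep] (21.0 percent of all genes) and for 8 of 9 in DMSO (21.4 percent of all genes), with *Ikbkg* the exception in both.

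A difference between the fold change by treatment at 12 h and that at 4 h was called for none of the 9 members (0 in limma), and 0 percent of all genes were called in this comparison. At an unadjusted p under 0.05 it was 0 of 9, against 3.56 percent of all genes in either direction. The member differences between the 2 responses ranged from -0.11 for *Nfkbiz* to 0.11 for *Bcl3* on the log2 scale. Their 95% intervals still allow, for *Nfkbiz*, a response at 12 h between 0.666 and 1.29 times that at 4 h.

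These calls depended on how the spread was moderated, since without the intensity trend in limma none of the 45037 probe sets was called in any of the comparisons.

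Some marker lists of cell types differed between groups in their summed signals, with time or with treatment. No marker was called by treatment, and how often sums of other genes stand apart was not tested. With time 2.15 percent of all genes were called higher in [BF/S+L/Ep] and 1.79 percent in DMSO. Of the macrophage markers 2 of 5 were called higher at 12 h in each treatment and 0 lower. These were *Adgre1*, which encodes the surface protein F4/80 (log2 fold change 1.26, adjusted p 0.000203, in [BF/S+L/Ep] and 1.16, adjusted p 0.000507, in DMSO), and *Cd14* (0.71, adjusted p 0.0162, in [BF/S+L/Ep] and 0.70, adjusted p 0.0210, in DMSO). The summed signal of the 5 was 61256 and 66861 in [BF/S+L/Ep] 12 h, 62352 and 61051 in DMSO 12 h, 52381 and 52968 in [BF/S+L/Ep] 4 h, and 54333 and 53120 in DMSO 4 h. These sums were higher at 12 h with no overlap in either treatment, while between the treatments they overlapped at 12 h and were lower in [BF/S+L/Ep] at 4 h.

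The 8 conventional dendritic cell markers ran the other way as a sum, with 109620.4 and 109415 in [BF/S+L/Ep] 12 h, 110702 and 115856 in DMSO 12 h, 126364 and 116484 in [BF/S+L/Ep] 4 h, and 117006 and 117750.4 in DMSO 4 h. The sum was lower at 12 h with no overlap in either treatment, and at 12 h it was lower in [BF/S+L/Ep] than in DMSO. None of the 8 was called lower, and the median log2 fold change with time was -0.06 in [BF/S+L/Ep] and -0.01 in DMSO. The transcription factor gene *Zbtb46* was called higher at 12 h in [BF/S+L/Ep] (0.70, adjusted p 0.0138) and in DMSO (0.78, adjusted p 0.00930), and *Batf3* in DMSO (0.70, adjusted p 0.0144). No dendritic cell marker was called by treatment.

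The 7 neutrophil markers, of which 3 passed the reference on every array and *Elane* on none, summed to 3065 and 2770.3 in [BF/S+L/Ep] 12 h, 3248 and 3236 in DMSO 12 h, 4146 and 3233 in [BF/S+L/Ep] 4 h, and 3620.3 and 3381 in DMSO 4 h. They were lower at 12 h with no overlap in either treatment, and lower in [BF/S+L/Ep] than in DMSO at 12 h, with 0 of 7 called in any comparison. The 4 plasmacytoid markers summed to 3694 and 3562 in [BF/S+L/Ep] 12 h, 3879.7 and 3727 in DMSO 12 h, 3867 and 3638 in [BF/S+L/Ep] 4 h, and 3935 and 3940.4 in DMSO 4 h. This sum was lower in [BF/S+L/Ep] than in DMSO at both times. With time the list had a median of -0.24 in [BF/S+L/Ep] and 0.41 in DMSO, and *Ccr9* was the only member called, higher in [BF/S+L/Ep] (1.53, adjusted p 0.00908). The dim stromal list summed to 376 and 369 in [BF/S+L/Ep] 12 h, 425 and 369.0 in DMSO 12 h, 342 and 298 in [BF/S+L/Ep] 4 h, and 335 and 286 in DMSO 4 h. It was higher at 12 h with no overlap in either treatment, and 0 of 4 were called. The part of these markers in the members' values was not tested, and in RNA from a whole culture fewer cells of a type and less RNA per cell cannot be told apart.

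**Figure D2:**
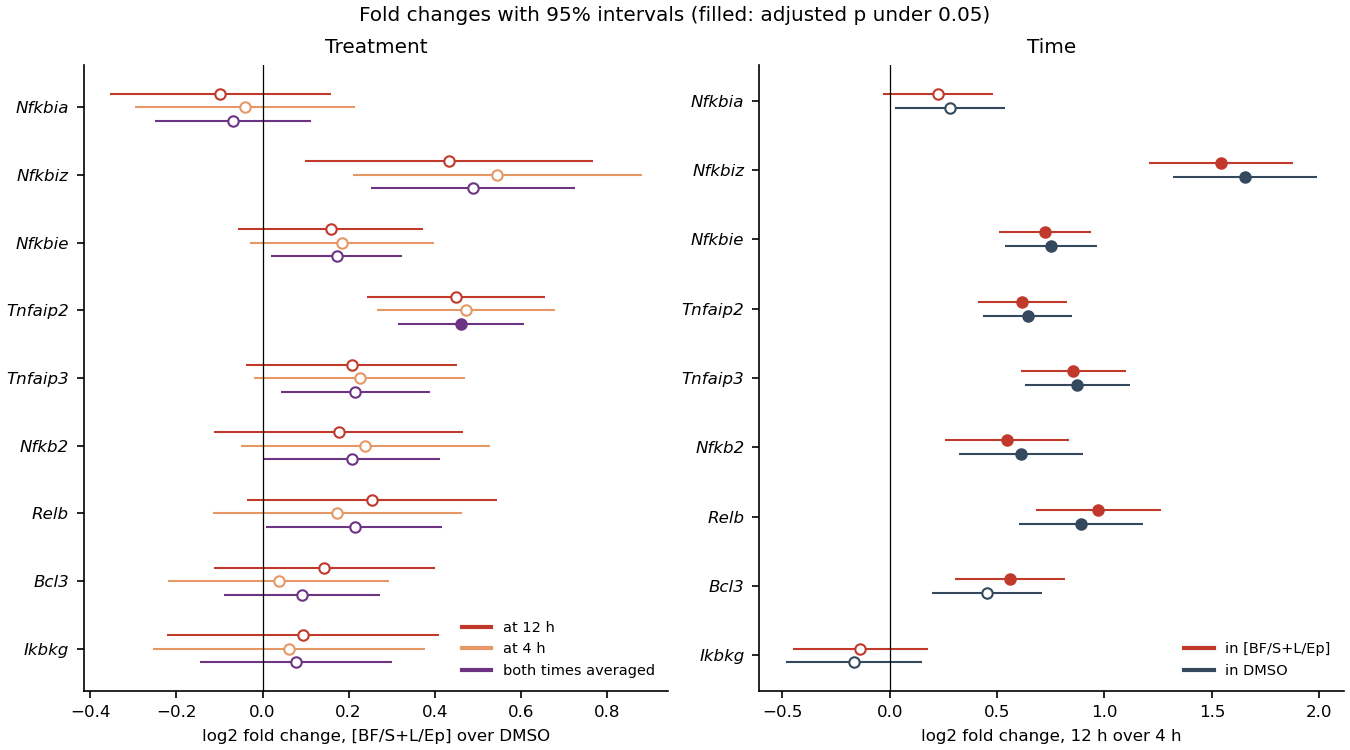
Log2 fold changes of the brightest probe set of each member with 95% intervals, on the left for [BF/S+L/Ep] over DMSO at 12 h, at 4 h and averaged over both times, and on the right for 12 h over 4 h in [BF/S+L/Ep] and in DMSO; filled points had an adjusted p under 0.05. *Tnfaip2* at 0.46 over both times is the only filled point on the left, and *Nfkbiz*, at 1.54 in [BF/S+L/Ep] and 1.66 in DMSO, lies farthest to the right among the time comparisons.

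*Tnfaip2* encodes a protein that TNF induces and that takes part in the formation of membrane nanotubes between cells. Its signal was 12136.6 and 11555.3 in [BF/S+L/Ep] 12 h, 8751.7 and 8596.2 in DMSO 12 h, 7947.3 and 7488.5 in [BF/S+L/Ep] 4 h, and 5441.8 and 5680.1 in DMSO 4 h. Every [BF/S+L/Ep] array was thus above both DMSO arrays of its time, and every 12 h array above both 4 h arrays of its treatment. The log2 fold change by treatment was 0.46 over both times (standard error 0.067, adjusted p 0.0171), a 1.38-fold difference with a 95% interval from 1.24 to 1.52. Taken singly, the treatment difference was 1.37-fold at 12 h (adjusted p 0.239) and 1.39-fold at 4 h (adjusted p 0.372), neither of which passed. The call over both times was lost when any 1 array of [BF/S+L/Ep] 12 h, DMSO 12 h or DMSO 4 h was left out. It was kept without either array of [BF/S+L/Ep] 4 h. Under all alternatives the log2 fold change over both times lay between 0.439 and 0.525. The call was also lost with each array centred on its median (adjusted p 0.132).

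The next brightest *Tnfaip2* probe set, 1416273_at, gave the same direction from lower signals: 5204.7 and 4729.3 in [BF/S+L/Ep] 12 h, 3026.0 and 3442.0 in DMSO 12 h, 2604.6 and 2848.6 in [BF/S+L/Ep] 4 h, and 1742.2 and 1768.8 in DMSO 4 h. Here too no [BF/S+L/Ep] array overlapped a DMSO array of its time. The log2 fold change over both times was 0.63 (adjusted p 0.00751), and it was not called when replicate 1 of [BF/S+L/Ep] 12 h (0.0647), replicate 1 of DMSO 12 h (0.0675) or either array of DMSO 4 h (0.0747 and 0.0791) was removed. The remaining probe set, 1457918_at, was above the background reference on only 1 of 8 arrays and gives no fold. At 12 h the brightest probe set was 1.54-fold higher than at 4 h in [BF/S+L/Ep] (adjusted p 0.00312) and 1.56-fold higher in DMSO (adjusted p 0.00295). The call with time in [BF/S+L/Ep] was lost without [BF/S+L/Ep] 12 h replicate 1 (adjusted p 0.0546), and that in DMSO without DMSO 4 h replicate 1 (0.0612).

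Of the inhibitors that hold NF-κB dimers in the cytoplasm, *Nfkbie* was called with time and the brightest *Nfkbia* probe set was not. *Nfkbia* encodes IκBα, the inhibitor made and destroyed fastest in the feedback loop. Its brightest probe set gave 32414.7 and 32721.3 in [BF/S+L/Ep] 12 h, 34044.5 and 35675.3 in DMSO 12 h, 31039.6 and 25062.1 in [BF/S+L/Ep] 4 h, and 28255.7 and 29109.2 in DMSO 4 h. The treated arrays were below the DMSO arrays at 12 h and spread to both sides of them at 4 h. The log2 fold change by treatment was -0.07 over both times (adjusted p 0.904), with a 95% interval of the fold from 0.841 to 1.08, and its sign turned under quantile normalization (0.002). With time the brightest probe set was 1.17-fold higher in [BF/S+L/Ep] (adjusted p 0.449) and 1.22-fold higher in DMSO (adjusted p 0.342), and neither was called.

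Of the 4 other *Nfkbia* probe sets, 1448306_at was higher at 12 h in both treatments. It read 13419.7 and 13399.0 in [BF/S+L/Ep] 12 h, 11072.3 and 12174.3 in DMSO 12 h, 8387.2 and 8275.8 in [BF/S+L/Ep] 4 h, and 7799.5 and 7439.6 in DMSO 4 h. The log2 fold change with time was 0.69 in [BF/S+L/Ep] (adjusted p 0.00164) and 0.61 in DMSO (adjusted p 0.00511), the DMSO call being lost when replicate 2 of DMSO 12 h (0.0756) or either array of DMSO 4 h (0.0554 and 0.102) was removed. A further set, 1449731_s_at, was called higher with time in [BF/S+L/Ep] (0.55, adjusted p 0.020) and not in DMSO (0.45, adjusted p 0.0702), and the difference between these was not called. Its call was lost without either DMSO 4 h array (0.0546 and 0.0541), either [BF/S+L/Ep] 12 h array (0.170 and 0.108) or replicate 2 of [BF/S+L/Ep] 4 h (0.0751). The *Nfkbia* probe sets thus disagreed on whether the time difference passed. By treatment all 5 lay between -0.07 and 0.17 over both times and none was called. Their signs differed: both treated arrays of 1448306_at stood above both DMSO arrays at 12 h and at 4 h, unlike those of the brightest set.

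*Nfkbie* encodes IκBε, a slower inhibitor of the same family. Its signal was 6300.9 and 6106.9 in [BF/S+L/Ep] 12 h, 5404.5 and 5719.9 in DMSO 12 h, 3948.1 and 3581.3 in [BF/S+L/Ep] 4 h, and 3354.7 and 3260.7 in DMSO 4 h. The 4 groups stood in this order with no array out of place. With time it was 1.65-fold higher in [BF/S+L/Ep] (adjusted p 0.00130) and 1.68-fold higher in DMSO (adjusted p 0.00115). By treatment the fold was 1.13 over both times, with a 95% interval from 1.01 to 1.25 and an adjusted p of 0.659. The other probe set, 1431843_a_at, was called with time in [BF/S+L/Ep] (log2 0.84, adjusted p 0.00691) and in DMSO (0.81, adjusted p 0.0109). The [BF/S+L/Ep] call was lost when replicate 1 of [BF/S+L/Ep] 12 h (0.102) or replicate 2 of [BF/S+L/Ep] 4 h (0.0576) was removed, and the DMSO call without either DMSO 4 h array (0.123 and 0.0827) or DMSO 12 h replicate 1 (0.137).

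The atypical nuclear members of the IκB family, *Nfkbiz* and *Bcl3*, are coregulators that act on NF-κB dimers already bound to DNA. *Nfkbiz* encodes IκBζ, which is needed for a group of late inflammatory genes. It gave signals of 1475.5 and 1238.5 in [BF/S+L/Ep] 12 h, 1081.1 and 926.3 in DMSO 12 h, 445.4 and 482.7 in [BF/S+L/Ep] 4 h, and 321.8 and 313.6 in DMSO 4 h. No 2 groups overlapped, and among the 9 brightest probe sets it had the largest fold change with time. At 12 h it was 2.92-fold higher than at 4 h in [BF/S+L/Ep] (95% interval 2.31 to 3.68, adjusted p 0.000101) and 3.15-fold higher in DMSO (2.50 to 3.97, adjusted p 6.24e-05). By treatment the log2 fold change was 0.49 over both times (standard error 0.109, adjusted p 0.208), the largest of the 9 and not called. The interval of the fold ran from 1.19 to 1.65.

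The second *Nfkbiz* probe set, 1457404_at, read 1091.2 and 868.1 in [BF/S+L/Ep] 12 h, 560.3 and 554.0 in DMSO 12 h, 228.0 and 186.8 in [BF/S+L/Ep] 4 h, and 271.2 and 173.5 in DMSO 4 h. Here the treatments overlapped at 4 h and not at 12 h. The log2 fold change with time was 2.24 in [BF/S+L/Ep] (adjusted p 0.000137) and 1.36 in DMSO (adjusted p 0.00791), where it was lost without DMSO 4 h replicate 2 (0.105) or either DMSO 12 h array (0.0838 and 0.0766). The difference between the 2 responses to treatment was 0.88 and was not called (adjusted p 1.0). The third set, 1448728_a_at, was above the background reference on 6 of 8 arrays and was called in no comparison.

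*Bcl3* had signals of 1794.1 and 1721.4 in [BF/S+L/Ep] 12 h, 1609.2 and 1571.8 in DMSO 12 h, 1112.6 and 1278.6 in [BF/S+L/Ep] 4 h, and 1128.0 and 1197.2 in DMSO 4 h. The treatments overlapped at 4 h and were apart at 12 h. With time it was 1.47-fold higher in [BF/S+L/Ep] (adjusted p 0.0226) and 1.37-fold in DMSO (adjusted p 0.0779), so that only the first passed. That call was lost when either array of [BF/S+L/Ep] 12 h (adjusted p 0.173 and 0.0958) or replicate 1 of [BF/S+L/Ep] 4 h (0.160) was removed. Whether the time difference was larger in one treatment is the same test as the difference between the 2 responses, which was 0.11 on the log2 scale for *Bcl3* (adjusted p 1.0).

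*Tnfaip3* encodes A20, an enzyme that edits ubiquitin chains on upstream signalling proteins and so shuts the pathway off. Its signal was 4167.3 and 4070.0 in [BF/S+L/Ep] 12 h, 3362.7 and 3786.5 in DMSO 12 h, 2477.8 and 2091.5 in [BF/S+L/Ep] 4 h, and 1943.3 and 1949.9 in DMSO 4 h. As for *Nfkbie*, the 4 groups followed each other without overlap. It was 1.81-fold higher with time in [BF/S+L/Ep] (adjusted p 0.00104) and 1.83-fold in DMSO (adjusted p 0.00103). By treatment the fold was 1.16 over both times (95% interval 1.03 to 1.31, adjusted p 0.614). The dimmer set, 1450829_at, varied more between arrays of a group, with 930.7 and 1176.6 in [BF/S+L/Ep] 12 h, 440.0 and 960.9 in DMSO 12 h, 419.8 and 628.7 in [BF/S+L/Ep] 4 h, and 293.0 and 221.8 in DMSO 4 h. It was called with time in DMSO (log2 1.35, adjusted p 0.0414) and not in [BF/S+L/Ep] (1.03, adjusted p 0.115). Its treatment difference of 0.85 over both times was not called (adjusted p 0.321). At 4 h both treated arrays stood above both DMSO arrays, with a log2 fold change of 1.01 that was not called (adjusted p 0.947). The call with time in DMSO was lost without either DMSO 4 h array (0.124 and 0.334), DMSO 12 h replicate 2 (0.309) or either [BF/S+L/Ep] 12 h array (0.0612 and 0.0617). It was also lost under quantile normalization (0.0654), with each array centred on its median (0.103) and with an offset of 50 added to the signals (0.0796).

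*Relb* and *Nfkb2* encode the pair of subunits of the alternative NF-κB pathway, with *Nfkb2* giving the precursor p100 and its processed form p52. *Relb* had signals of 5057.2 and 5306.3 in [BF/S+L/Ep] 12 h, 4231.2 and 4459.1 in DMSO 12 h, 2458.0 and 2836.8 in [BF/S+L/Ep] 4 h, and 2708.2 and 2025.2 in DMSO 4 h. The treatments were apart at 12 h and interleaved at 4 h. With time it was 1.96-fold higher in [BF/S+L/Ep] (adjusted p 0.00134) and 1.85-fold higher in DMSO (adjusted p 0.00318). The DMSO call was lost when replicate 2 of DMSO 12 h (0.0563) or of DMSO 4 h (0.0633) was removed. By treatment the fold was 1.16 over both times (95% interval 1.01 to 1.34, adjusted p 0.694).

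*Nfkb2* gave 2187.9 and 2119.0 in [BF/S+L/Ep] 12 h, 1777.0 and 2042.2 in DMSO 12 h, 1359.0 and 1597.6 in [BF/S+L/Ep] 4 h, and 1373.1 and 1134.7 in DMSO 4 h. As in *Relb*, the treatments overlapped at 4 h only. With time it was 1.46-fold higher in [BF/S+L/Ep] (adjusted p 0.0469) and 1.53-fold higher in DMSO (adjusted p 0.0326). Both calls were close to the threshold: in [BF/S+L/Ep] the adjusted p was above 0.05 without any 1 of the 8 arrays (0.0514 to 0.276), and in DMSO it was so without any array but the pair of [BF/S+L/Ep] 4 h (0.0541 to 0.326). The second probe set, 1429128_x_at, was also called with time in [BF/S+L/Ep] (log2 0.63, adjusted p 0.0311) and in DMSO (0.81, adjusted p 0.00930). In DMSO this was lost without any 1 of the 4 DMSO arrays (0.0533 to 0.104), and in [BF/S+L/Ep] without any array but replicate 2 of either treatment at 12 h (0.050 to 0.298). By treatment the 2 sets gave 0.21 (adjusted p 0.701) and 0.03 (adjusted p 0.978) over both times.

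The brightest probe set of *Ikbkg*, the kinase subunit, was called in no comparison. It read 750.0 and 792.9 in [BF/S+L/Ep] 12 h, 686.6 and 761.3 in DMSO 12 h, 829.3 and 865.8 in [BF/S+L/Ep] 4 h, and 734.2 and 898.0 in DMSO 4 h. The treatments overlapped at both times, and the 12 h arrays lay below the 4 h arrays in [BF/S+L/Ep] and overlapped them in DMSO. With time the fold was 0.910 in [BF/S+L/Ep] (95% interval 0.731 to 1.13, adjusted p 0.782) and 0.890 in DMSO (0.715 to 1.11, adjusted p 0.736), and by treatment it was 1.06 over both times (0.904 to 1.23, adjusted p 0.917).

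A different picture came from 1 of its 6 probe sets, 1435647_at. The study picked *Ikbkg* from these same arrays at 4 h, so its values at that time are a description and no independent evidence. This set gave 304.1 and 160.1 in [BF/S+L/Ep] 12 h, 338.9 and 315.2 in DMSO 12 h, 564.8 and 552.5 in [BF/S+L/Ep] 4 h, and 279.4 and 270.1 in DMSO 4 h. The [BF/S+L/Ep] 4 h arrays stood apart from the other 6, and at 12 h both treated arrays lay below both DMSO arrays. It was the only one of the 25 member probe sets at 2-fold in the means and both same-numbered ratios at 4 h, with a log2 fold change of 1.02 (adjusted p 0.861), against -0.57 at 12 h (adjusted p 0.839). Neither was called, nor was the difference between the responses of -1.59 (adjusted p 1.0). The 2-fold status depended on the rule. When all 4 ratios of a treated to a DMSO array had to reach 2-fold at 4 h, 0 member probe sets passed. By the group means alone, *Tnfaip3* 1450829_at passed as well (ratio 2.04). Within [BF/S+L/Ep] the set was lower at 12 h than at 4 h by a log2 fold change of -1.34 (adjusted p 0.0160), a call that was lost when replicate 2 of [BF/S+L/Ep] 12 h (-0.88, adjusted p 0.106) or either array of [BF/S+L/Ep] 4 h (-1.32, 0.116 and -1.36, 0.0779) was removed. In DMSO its difference with time was 0.25 (adjusted p 0.802).

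**Figure D3:**
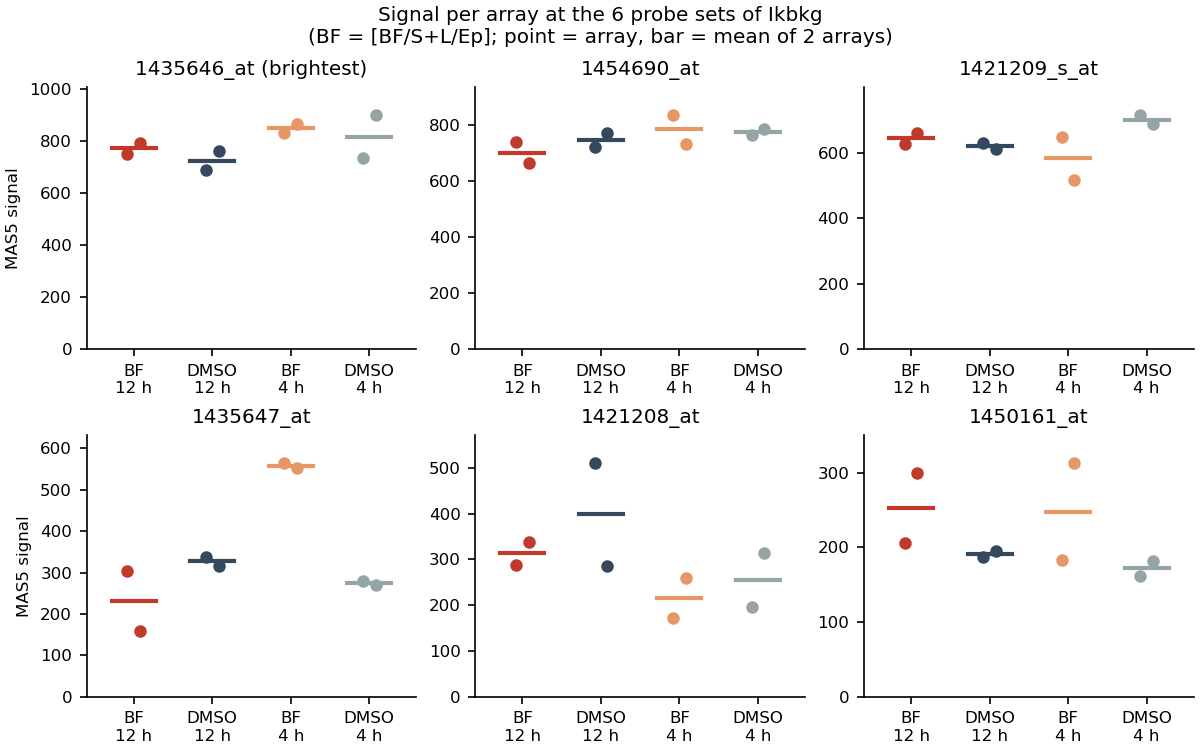
MAS5 signal (linear scale, vertical axes from 0) of the 6 *Ikbkg* probe sets on all 8 arrays, where a point is an array and a bar the group mean. The raised [BF/S+L/Ep] 4 h points of 1435647_at, at 564.8 and 552.5, have no counterpart in 1435646_at, 1454690_at, 1421209_s_at or 1421208_at, where the [BF/S+L/Ep] and DMSO points at 4 h overlap or lie the other way, while those of 1450161_at, at 182.8 and 312.8, lie above 161.8 and 181.9 in DMSO 4 h.

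The other 4 *Ikbkg* probe sets were called in no comparison. At 4 h, 1454690_at had a log2 fold change by treatment of 0.01, 1421209_s_at of -0.28, 1421208_at of -0.23 and 1450161_at of 0.48. The sets of this gene therefore differed in sign at 4 h, and the annotation used here does not say which transcript each one reads.

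The rest of the pathway was described from 4 lists. As a scale for their counts, 0.159 percent of all genes were called higher by treatment over both times. With time 2.15 percent were called higher in [BF/S+L/Ep] and 1.79 percent in DMSO. Of the other subunits and kinases, 12 of 13 were measured, and 0 were called by treatment in either direction, with a median of 0.03 over both times. *Ikbke*, an IκB kinase-related enzyme that is itself induced in activated cells, was the only one called with time. Its signal was 4212.3 and 3787.0 in [BF/S+L/Ep] 12 h, 3471.3 and 3461.1 in DMSO 12 h, 1506.5 and 1681.4 in [BF/S+L/Ep] 4 h, and 1345.9 and 1240.2 in DMSO 4 h. The log2 fold change with time was 1.33 in [BF/S+L/Ep] and 1.42 in DMSO, and the treatment difference over both times was 0.25 (adjusted p 0.494). *Tab1*, an adaptor of the upstream kinase TAK1, had the next smallest p by treatment, with -0.43 (adjusted p 0.713).

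Of the adaptors and ligases upstream, 17 of 21 were measured. By treatment 0 were called, and *Irak2*, a kinase-like adaptor of Toll-like receptor signalling, and *Birc3*, a ubiquitin ligase of the TNF receptor complex, came nearest with 0.42 (adjusted p 0.218) and 0.24 (adjusted p 0.533) over both times. With time 5 were higher and 0 lower in each treatment, where 2.15 percent of all genes were higher in [BF/S+L/Ep] and 1.79 percent in DMSO. *Irak2* had a log2 fold change of 0.97 in [BF/S+L/Ep] and 0.78 in DMSO. *Malt1*, the paracaspase that joins antigen and lectin receptors to NF-κB, had 0.99 in [BF/S+L/Ep] and 1.13 in DMSO. The ligase *Birc2* had 0.62 and the adaptor *Traf1* 0.74 in [BF/S+L/Ep], against 0.67 and 0.58 in DMSO. Centring each array on its median ended the calls of *Birc2* (adjusted p 0.107 in [BF/S+L/Ep] and 0.0979 in DMSO) and *Traf1* (0.0626 and 0.241). It also ended that of *Irak2* in DMSO (0.0811). With 1 array left out, the [BF/S+L/Ep] call was lost for *Birc2* without [BF/S+L/Ep] 12 h replicate 1 (adjusted p 0.108) and for *Traf1* without [BF/S+L/Ep] 12 h replicate 2 (0.0541). The DMSO call was lost when replicate 2 of DMSO 4 h and that of DMSO 12 h were removed in turn for *Irak2* (0.142 and 0.113), *Birc2* (0.105 and 0.0810) and *Traf1* (0.176 and 0.224), and for *Traf1* also without DMSO 4 h replicate 1 (0.174).

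Calls among the other feedback inhibitors came with time and not with treatment. Of 10 listed, 9 were measured, and 0 were called by treatment, where *Zc3h12a*, the ribonuclease Regnase-1, had 0.32 (adjusted p 0.726) and *Tnip1*, a partner of A20, had 0.15 (adjusted p 0.744) over both times. With time 2 of 9 were higher in [BF/S+L/Ep] (2.15 percent of all genes) and 0 of 9 in DMSO (1.79 percent). These were *Tnip1* (log2 0.47, adjusted p 0.0343) and *Irak3*, an inhibitory IRAK (0.51, adjusted p 0.0436). The call of *Irak3* was lost without any 1 of the 8 arrays (0.0617 to 0.233), and that of *Tnip1* without any array but the DMSO 12 h pair (0.0657 to 0.262). Centring each array on its median also ended the calls of *Tnip1* (0.285) and *Irak3* (0.231), and quantile normalization that of *Irak3* (0.0514). In DMSO the same genes had 0.20 (adjusted p 0.511) and 0.36 (adjusted p 0.196), and their differences between the treatments, 0.27 and 0.14, were not called (adjusted p 1.0 for both).

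Of the 20 inflammatory target genes, all were measured and 18 were above the background reference. With time 14 were higher in [BF/S+L/Ep] (2.15 percent of all genes) and 12 in DMSO (1.79 percent). The medians were 0.80 in [BF/S+L/Ep] and 0.76 in DMSO, and none was lower. Several of the calls in each treatment were lost when each array was centred on its median. The neutrophil attractant *Cxcl2* had the smallest p in both, with log2 fold changes of 2.16 in [BF/S+L/Ep] and 1.99 in DMSO. The next smallest was that of *Il12b*, a subunit of interleukin 12, with 1.64 in [BF/S+L/Ep] and 1.60 in DMSO. By size *Il1a*, which encodes interleukin 1α, stood closest to *Cxcl2* among the called genes, with 2.12 in [BF/S+L/Ep] (adjusted p 0.00278) and 1.605 in DMSO (adjusted p 0.020). Its DMSO call was lost when either array of DMSO 12 h (0.139 and 0.150) or replicate 1 of DMSO 4 h (0.136) was removed. The cytokine gene *Il1b* had 1.07 in [BF/S+L/Ep] and 0.77 in DMSO, and *Sod2*, the mitochondrial superoxide dismutase, 0.80 in [BF/S+L/Ep] and 0.58 in DMSO. *Ier3*, an early response gene, had 0.81 in [BF/S+L/Ep] and 0.997 in DMSO. The DMSO call of *Sod2* was lost without any 1 of the 4 DMSO arrays (adjusted p 0.0879 to 0.152). It was also lost with each array centred on its median (0.195).

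By treatment 2 of the 20 were called over both times, where 0.159 percent of all genes were called higher. *Cxcl2* read 9162.1 and 7399.5 in [BF/S+L/Ep] 12 h, 4492.8 and 4202.3 in DMSO 12 h, 1912.0 and 1787.7 in [BF/S+L/Ep] 4 h, and 1032.4 and 1155.5 in DMSO 4 h. Its log2 fold change was 0.84 over both times (adjusted p 0.00194) and 0.92 at 12 h (adjusted p 0.0276). The call at 12 h was lost without any 1 array of DMSO 12 h (adjusted p 0.234 and 0.284), [BF/S+L/Ep] 12 h (0.247 and 0.0903) or DMSO 4 h (0.100 and 0.104). It was also lost with only the 4 arrays of 12 h (0.117) and with an offset of 50 added to the signals (0.0662). *Ier3* read 1623.8 and 1624.8 in [BF/S+L/Ep] 12 h, 1114.9 and 1283.7 in DMSO 12 h, 903.4 and 952.0 in [BF/S+L/Ep] 4 h, and 598.4 and 600.1 in DMSO 4 h. Its log2 fold change was 0.54 over both times (adjusted p 0.0465), and without any 1 of the 8 arrays the adjusted p was between 0.0834 and 0.272. The call was also lost under quantile normalization (0.0510), with each array centred on its median (0.132) and with the offset of 50 (0.0598). The list as a whole had a median of 0.13 by treatment and was split, with genes such as *Ccl3* (-0.33, adjusted p 0.586) below 0.

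**Figure D4:**
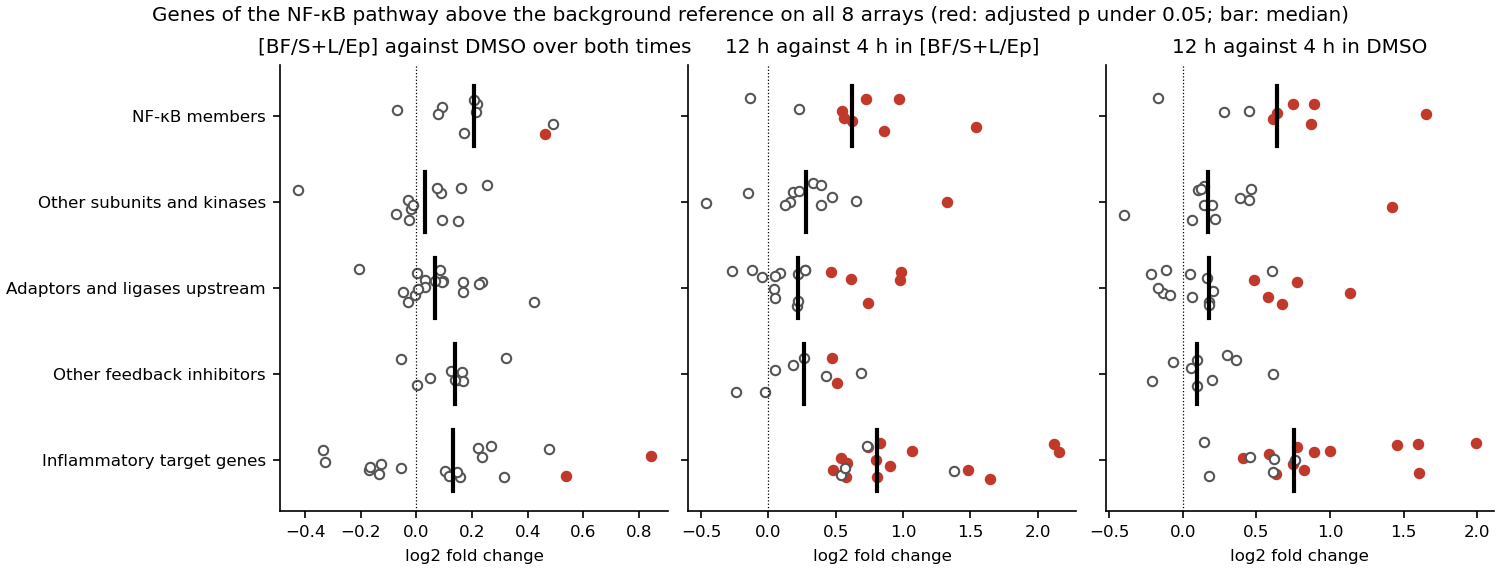
Log2 fold changes of those genes of each list whose signal passed the background reference on every array, for [BF/S+L/Ep] against DMSO over both times, for 12 h against 4 h in [BF/S+L/Ep] and for 12 h against 4 h in DMSO; 1 point per gene, red with an adjusted p under 0.05, and a bar at the median of the points shown. The members (7 red of 9 in [BF/S+L/Ep] and 6 of 9 in DMSO) and the target genes (14 and 12 red of 18) lie to the right with time, while by treatment 1 member and 2 target genes are red.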

How the data were processed

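The intensity values are those the authors deposited: MAS5 signals on the linear scale, 1 per probe set and array, made from the scanned arrays (no version of MAS5 is given in the sources used here). The mean of each array, trimmed by 2% at each end, was 500. The 64 control probe sets of 45101 and the detection calls were left out. By the annotation that came with the series, 34945 probe sets had 1 symbol, 932 several and 9160 none, and 34741 of the first matched a RefSeq gene (GRCm38.p6).

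Log2 signals of the 8 arrays were fitted with 4 group means in limma 3.58.1 (R 4.3.3, statmod 1.5.0) with an intensity trend (4 residual and 8.833 prior degrees of freedom). The fit was run on simulated data first. The simulated spread followed signal intensity alone, so that run does not test the choice of the trend. Its planted changes were also larger than the treatment differences at the members' brightest probe sets. Tests were two-sided, adjusted by Benjamini-Hochberg over 45037 probe sets, with a threshold of 0.05. Python 3.11.15 with matplotlib 3.10.9 drew the figures. The contrasts were treatment at 12 h, at 4 h and averaged, the difference of the responses, and 12 h against 4 h in each treatment. All members are named, and of each list the called genes with the 4 smallest p in a comparison, or the 2 with the smallest p over both times where none was called. *Ccl3* and *Il1a* were named after their values were seen. The members and lists were chosen with earlier results of these data known. Alternatives were quantile normalization, median centring, an offset of 50, a filter at the background reference, no trend, the replicate number as a block, the arrays of 1 time alone, other 2-fold rules, and each array left out in turn. A 2-fold difference was counted only where at least 4 arrays passed the background reference. Promoter stretches are from RefSeq.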

Additional observations from a re-analysis of the deposited data

How the results depend on the processing

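The number of members called by treatment at 12 h, at 4 h and in the difference of the responses was 0 under every alternative run. The number of members whose brightest probe set was at 2-fold was also 0 under every alternative run. Over both times 1 member was called, but 0 with each array centred on its median and 0 without the intensity trend. The count was 0 to 1 with 1 array left out. With time in [BF/S+L/Ep] 7 members were called, but 4 with median centring and 0 without the trend. The count was 4 to 6 with 1 array left out (4 without [BF/S+L/Ep] 12 h replicate 1). In DMSO 6 were called with time, but 4 with median centring and 0 without the trend. With 1 array left out the count was 4 to 6 (4 without either DMSO 4 h array or DMSO 12 h replicate 2). Without the trend the lowest adjusted p over all 45037 probe sets was 0.0912 for time in [BF/S+L/Ep] and 0.116 for time in DMSO. With the replicate block the counts were 0 at 12 h, 0 at 4 h, 1 over both times, 0 for the difference, 6 with time in [BF/S+L/Ep] and 6 in DMSO. The labels do not pair same-numbered arrays, and their deviations from the group means correlated between -0.0293 and 0.109 over 23406 probe sets. Median centring ended the calls with time of *Nfkb2* (adjusted p 0.240 in [BF/S+L/Ep] and 0.221 in DMSO), *Tnfaip2* (0.0815 and 0.0959) and *Bcl3* (0.133 in [BF/S+L/Ep]). Among dimmer member probe sets it ended those of 1429128_x_at (0.149 and 0.0636), 1448306_at (0.0765 and 0.175), 1449731_s_at (0.217 in [BF/S+L/Ep]) and 1450829_at (0.103 in DMSO). Calls with time in the lists of adaptors, other feedback inhibitors and target genes were lost as well.

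A few small treatment differences changed sign. *Nfkbia* had 0.015 on the log2 scale at 4 h with median centring, and under quantile normalization 0.020 at 12 h and 0.002 over both times. With 1 array left out, the 4 h value lay between -0.063 and 0.138 for *Bcl3*, -0.084 and 0.207 for *Ikbkg*, -0.195 and 0.114 for *Nfkbia*, and -0.036 and 0.383 for *Relb*, and the value of *Nfkbia* over both times lay between -0.146 and 0.008. Of the other comparisons of single genes, 1 gained a call: *Nfkbia* with time in [BF/S+L/Ep] under quantile normalization (0.34, adjusted p 0.0365). The arrays number 2 a group, which limits the precision of every value, and the cause of these changes was not tested.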
